A study of Homo sapiens with 4 samples.

Results

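The 10 inflammatory chemokine genes were examined in UMSCC74B cells, a line derived from a head and neck squamous cell carcinoma, and they were chosen by name: CXCL1, CXCL2, CXCL3, CXCL5, CXCL8, CXCL10, CXCL11, CCL2, CCL5 and CCL20. All 10 were found among the 29655 distinct gene names of the count tables, with CXCL8 listed under its older symbol IL8. RNA sequencing was done 72 h after cells received control shRNA (2 libraries) or shRNA against PRMT5 (2 libraries, labelled PRMT5 KD), with no other agent or allele given for either group. PRMT5 is a protein arginine methyltransferase, and the labels describe transfection of shRNA plasmids where the methods describe lentiviral particles. Neither source says that the 2 libraries of a group came from separate cultures, so all p-values measure the spread between these libraries, which may be technical.

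Chemokines are small secreted proteins that guide leukocytes along gradients through G protein-coupled receptors. CXCL1, CXCL2, CXCL3, CXCL5 and CXCL8 carry the ELR motif and draw neutrophils through CXCR1 and CXCR2, whereas CXCL10 and CXCL11 are interferon-induced ligands of CXCR3 on T cells. CCL2 draws monocytes through CCR2, CCL5 draws T cells and monocytes, and CCL20 draws CCR6-bearing lymphocytes and dendritic cells. In squamous carcinoma and other epithelia, NF-kB downstream of interleukin-1 and TNF is a well known inducer of the ELR genes and CCL20.

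The genes lie mostly on chromosome 4 (GRCh38), and their promoters are shown because neighbours here shared, or did not share, the order of their levels across the libraries. In gene order the chosen ELR genes begin with CXCL8 at chr4:73740519-73743716 and CXCL1 at chr4:73869393-73871308, both on the plus strand. CXCL5 at chr4:73995642-73998677, CXCL3 at chr4:74036589-74038807 and CXCL2 at chr4:74097040-74099196 follow, all on the minus strand. CXCL6, an ELR gene that was not among those chosen, lies between CXCL8 and CXCL1 at chr4:73836640-73849064 on the plus strand. The chosen ELR genes span 358.7 kb. After a gap of 1922 kb come CXCL10 at chr4:76021118-76023497 and CXCL11 at chr4:76033682-76041415, both on the minus strand. CCL2 lies at chr17:34255274-34257208 on the plus strand, CCL5 at chr17:35871491-35880793 on the minus strand and CCL20 at chr2:227805739-227817564 on the plus strand.

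RefSeq promoters (GRCh38.p14, 250 bases before to 50 after the start) were matched by symbol for 8 of the 10 genes, all but CCL2 and CCL5. The windows below run from 140 bases before the start and on through the first 10 bases of the transcript, 150 bases in all, 5′ to 3′ on the strand of the gene, with matches to the NF-kB motif or to the AP-1 motif TGANTCA in capitals. They lie at chr4:73869253-73869402 on the plus strand (CXCL1), chr4:74099186-74099335 on the minus strand (CXCL2), chr4:74038680-74038829 on the minus strand (CXCL3), chr4:73740429-73740578 on the plus strand (CXCL8), chr4:76023488-76023637 on the minus strand (CXCL10) and chr4:76036061-76036210 on the minus strand (CXCL11). For CXCL2, CXCL3, CXCL8, CXCL11 and CCL20 the RefSeq start lies inside the GENCODE gene span given above, for CXCL2 at the base next to its end.
CXCL1: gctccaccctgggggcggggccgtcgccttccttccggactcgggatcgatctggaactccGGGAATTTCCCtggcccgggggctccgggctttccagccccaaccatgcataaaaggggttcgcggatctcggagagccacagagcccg
CXCL2: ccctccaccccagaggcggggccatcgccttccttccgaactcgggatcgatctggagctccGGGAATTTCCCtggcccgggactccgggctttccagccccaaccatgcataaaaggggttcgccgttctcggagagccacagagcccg
CXCL3: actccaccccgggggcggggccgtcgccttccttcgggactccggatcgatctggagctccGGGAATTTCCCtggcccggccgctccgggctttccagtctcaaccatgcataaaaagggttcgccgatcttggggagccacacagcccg
CXCL8: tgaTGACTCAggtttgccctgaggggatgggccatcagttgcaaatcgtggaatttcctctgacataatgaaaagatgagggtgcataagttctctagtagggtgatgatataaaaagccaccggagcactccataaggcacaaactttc
CXCL10: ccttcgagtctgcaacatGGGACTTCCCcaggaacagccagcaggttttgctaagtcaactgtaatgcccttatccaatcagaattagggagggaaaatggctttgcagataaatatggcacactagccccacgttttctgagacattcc
CXCL11: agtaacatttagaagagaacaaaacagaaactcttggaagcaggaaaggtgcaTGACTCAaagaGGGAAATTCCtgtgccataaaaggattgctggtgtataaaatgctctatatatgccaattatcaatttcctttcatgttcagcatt

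The CXCL1, CXCL2 and CXCL3 windows are close copies of one another, and all 3 hold the same run of NF-kB letters. CXCL1 and CXCL2 were identical at 139 of 151 alignment columns, CXCL1 and CXCL3 at 136 of 150, and CXCL2 and CXCL3 at 133 of 151. The NF-kB letters searched for were GGGRNNYYCC, where R is A or G, Y is C or T and N is any base. All 3 hold the same NF-kB run, which is a match on both strands, while the CXCL8 window holds an AP-1 match (TGACTCA) and no NF-kB match of these letters. The CXCL8 window does hold TGGAATTTCC, which differs from the NF-kB letters at the first base only. The NF-kB motif was found on either strand of 7 of the 8 promoters (all but CXCL8), and 11.3% of the 34943 promoters of the same length hold it. CXCL10 has another NF-kB match farther from the start, outside the printed window, and in CXCL11 the NF-kB match stands next to an AP-1 match. AP-1 matches were found in 2 of the 8 promoters (CXCL8 and CXCL11), against 7.72% of all promoters. The core of the interferon-stimulated response element, GAAANNGAA, was found in 3 of the 8 (CXCL2, CXCL3 and CXCL10), against 8.1% of all promoters. These are matches of letters, not bound sites, and the near-identical promoters are not independent of each other.

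Between 52185289 and 65964558 counts per library fell on named genes. Of these counts, 71.5% lay on protein-coding genes in PRMT5 KD 1, against 79.5% to 81.4% in the other 3 libraries. The targeted transcript went against its label: in CPM, which are read counts scaled by TMM to a common library size, PRMT5 stood at 94.3 and 84.3 in control and at 132 and 150 under the PRMT5 KD label. Its change on the log2 scale was 0.66 (standard error, SE, 0.12, FDR = 0.00550, edgeR). Without control 2 it was 0.58 with an FDR of 0.0679, and the FDR over all alternatives ran from 0.000100 to 0.0679. Every direction below is therefore by the label of the library, and PRMT5 KD 1 and PRMT5 KD 2 mean the libraries so labelled. At the level of protein, which was not measured here, the paper reports silencing by the PRMT5 shRNA on an immunoblot. Of the markers that define squamous epithelium, KRT5, KRT14, KRT6A and CDH1 stayed under 0.5 CPM in every library. Other epithelial markers were present, with TP63 at 5.51 and 6.60 CPM, ITGB4 at 4.77 and 6.56 CPM and ITGA6 at 59.9 and 57.4 CPM in control.

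Of the 10 chemokines, 6 were called higher in the libraries labelled PRMT5 KD and none was called lower. To be called, a gene had to reach an FDR below 0.05 and a change of 0.5 or more on the log2 scale, either way, in edgeR's quasi-likelihood test over 11897 protein-coding genes. Those called were CXCL1, CXCL2, CXCL3, CXCL8, CXCL11 and CCL5. CXCL10 and CCL20 were tested and not called, while CXCL5 and CCL2 did not reach 0.5 RPKM in both libraries of either label and were left out of this test. Over all genes tested, 45.5% were called, 21.2% higher and 24.3% lower. The median log2 fold change of the 8 chemokines tested was 2.03, against -0.01 over all genes. In 9 of the 10, both libraries labelled PRMT5 KD lay above both control libraries, the exception being CCL2, which lay below, and KD above control without overlap held for 39.9% of all genes tested. In bulk RNA, a different number of producing cells and a different amount of RNA per cell cannot be told apart. With 2 libraries against 2, a permutation of labels cannot reach 0.05, so each FDR rests on the spread that edgeR estimates over the whole set of genes.

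**Figure D1:**
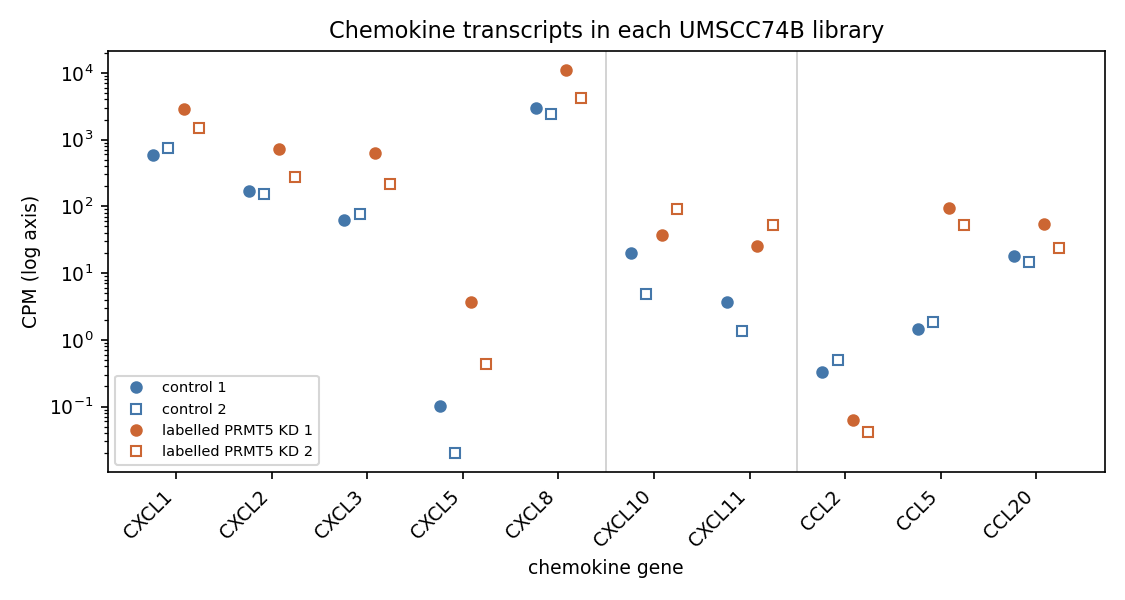
CPM of the 10 chemokine genes on a log axis, 1 point for each library, with circles for library 1 and squares for library 2 of each label. CXCL8 and CXCL1 stand highest, PRMT5 KD 1 is above PRMT5 KD 2 in the 5 ELR genes on the left, the order turns for CXCL10 and CXCL11 in the middle, and CCL2 is the 1 gene with both PRMT5 KD points below the controls.

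Among the ELR genes, CXCL8, the classical neutrophil chemoattractant interleukin-8, was the most abundant. It had 2947 CPM in control 1 and 2412 in control 2, and 11071 CPM in PRMT5 KD 1 and 4260 in PRMT5 KD 2. Both PRMT5 KD libraries lay above both controls, and PRMT5 KD 1 lay far above PRMT5 KD 2. The log2 fold change was 1.52 (SE 0.47, FDR = 0.0449). CXCL1, a growth-regulated oncogene product acting through CXCR2, had 595 and 755 CPM in control against 2915 and 1492 CPM in PRMT5 KD. The groups did not overlap, and its log2 fold change was 1.71 (SE 0.35, FDR = 0.0105).

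CXCL2, a close paralog of CXCL1, had 171 and 155 CPM in the control libraries, which lay close together. It had 726 CPM in PRMT5 KD 1 and 279 CPM in PRMT5 KD 2, and a log2 fold change of 1.63 (SE 0.47, FDR = 0.0395). CXCL3, another of these paralogs, had 62.8 and 75.7 CPM in control against 636 and 213 CPM in PRMT5 KD. Its log2 fold change of 2.61 (SE 0.56, FDR = 0.0179) was the largest of the ELR genes tested. Here too PRMT5 KD 1 was the higher library by a wide margin.

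CXCL5, a neutrophil chemokine typical of epithelial cells, was nearly silent in control with 4 and 1 counts. It had 176 counts in PRMT5 KD 1 and 21 in PRMT5 KD 2. The groups did not overlap, but most of the counts came from PRMT5 KD 1. The ratio of summed counts at equal depth was 37, with a 95% counting interval of 15.6 to 115 that covers counting error only. With no filter on low counts its log2 fold change was 5.18 with an FDR of 0.0759, which did not pass, whereas with edgeR's own filter (filterByExpr) it was called higher.

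Reads of CXCL1, CXCL2 and CXCL3 could be divided wrongly between these genes. In the canonical transcripts, CXCL1 and CXCL2 shared 60 stretches of 50 bases (5.33% of those in CXCL1), CXCL2 and CXCL3 shared 54 (5.07% of those in CXCL2), and CXCL1 and CXCL3 shared 6 (0.533% of those in CXCL1). Summed into 1 entry before the fit, the 3 genes had a log2 fold change of 1.79 (FDR = 0.0138). The calls of the 4 ELR genes depended on the number of control libraries: without control 1 or without control 2, CXCL1, CXCL2, CXCL3 and CXCL8 each had an FDR above 0.05, the largest being 0.176 for CXCL8. With no filter on low counts, CXCL2, CXCL3 and CXCL8 lost their calls too, and their FDRs were 0.113, 0.0841 and 0.101. CXCL2 and CXCL8 also lost their calls under the length and GC correction (FDR = 0.0950 and 0.0691) and under the crossed pairing of libraries (FDR = 0.0570 and 0.0647). Over all alternatives the FDR ran from 9.15e-07 to 0.151 for CXCL2 and from 1.08e-05 to 0.176 for CXCL8.

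CXCL10 and CXCL11 were higher in PRMT5 KD 2 than in PRMT5 KD 1, the reverse of the ELR genes. This did not hold for CXCL9, another CXCR3 ligand, which was not among the chosen chemokines and was named after its values were seen. CXCL9 had 1 and 4 counts in control, 42 in PRMT5 KD 1 and 2 in PRMT5 KD 2. CXCL11, the higher-affinity CXCR3 ligand, had 3.74 and 1.34 CPM in control. It rose to 25.7 CPM in PRMT5 KD 1 and 52.1 CPM in PRMT5 KD 2, so the groups did not overlap and PRMT5 KD 2 was the higher library. Its log2 fold change was 3.96 (SE 0.63, FDR = 0.00731). Without PRMT5 KD 1 the value was 4.43 (FDR = 0.0752) and without PRMT5 KD 2 it was 3.37 (FDR = 0.0928), and the other alternatives kept the call, with FDRs down to 1.12e-05.

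CXCL10, also known as IP-10, had 20.1 CPM in control 1 and 4.94 in control 2. It had 36.6 CPM in PRMT5 KD 1 and 90.5 in PRMT5 KD 2. The groups did not overlap, but each label held a wide gap between its libraries. The log2 fold change was 2.35 (SE 0.81, FDR = 0.0649) and did not pass. DESeq2 gave an FDR of 0.0498 for CXCL10, and non-robust dispersion gave 0.0351. With every library kept, the highest FDR was 0.231, with no filter on low counts. An FDR of 0.000588 came from the crossed pairing of libraries, which was chosen after the data were seen. The log2 fold change was 1.57 without PRMT5 KD 2 and 3.69 without control 1.

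Of the CC chemokines, CCL5 (RANTES) had the largest change of the 8 genes tested. It had 1.47 and 1.82 CPM in control, 95.8 CPM in PRMT5 KD 1 and 52.9 CPM in PRMT5 KD 2. The control libraries agreed closely and stood far below either PRMT5 KD library. The log2 fold change was 5.49 (SE 0.38, FDR = 0.000530), and the call held in 12 other settings and with each of the 4 libraries left out, with values from 4.99 to 5.86. It was the 1 called chemokine whose call survived the removal of any single library.

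CCL20, the ligand of CCR6, had 17.8 and 14.6 CPM in control against 53.9 and 23.6 CPM in PRMT5 KD. PRMT5 KD 2 lay only a little above the controls. The log2 fold change was 1.26 (SE 0.42, FDR = 0.0566) and did not pass. It passed with DESeq2 (FDR = 0.000871) and in the replicate block fit (log2 fold change 1.15, FDR = 0.0226), and the FDR over all alternatives ran from 7.26e-06 to 0.194.

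CCL2, the monocyte chemoattractant MCP-1, went the other way. It had 13 and 25 counts in control against 3 and 2 counts in PRMT5 KD. The groups did not overlap at these low counts, with a ratio of PRMT5 KD to control of 0.124 (95% counting interval 0.0380 to 0.314). With no filter on low counts, where 16838 genes were tested and 17.4% were called higher and 19.2% lower, CCL2 was called lower with a log2 fold change of -2.88 (FDR = 0.0106), as it was with filterByExpr. Without a filter the chemokines called higher were CXCL1, CXCL11 and CCL5, 3 of the 10.

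**Figure D2:**
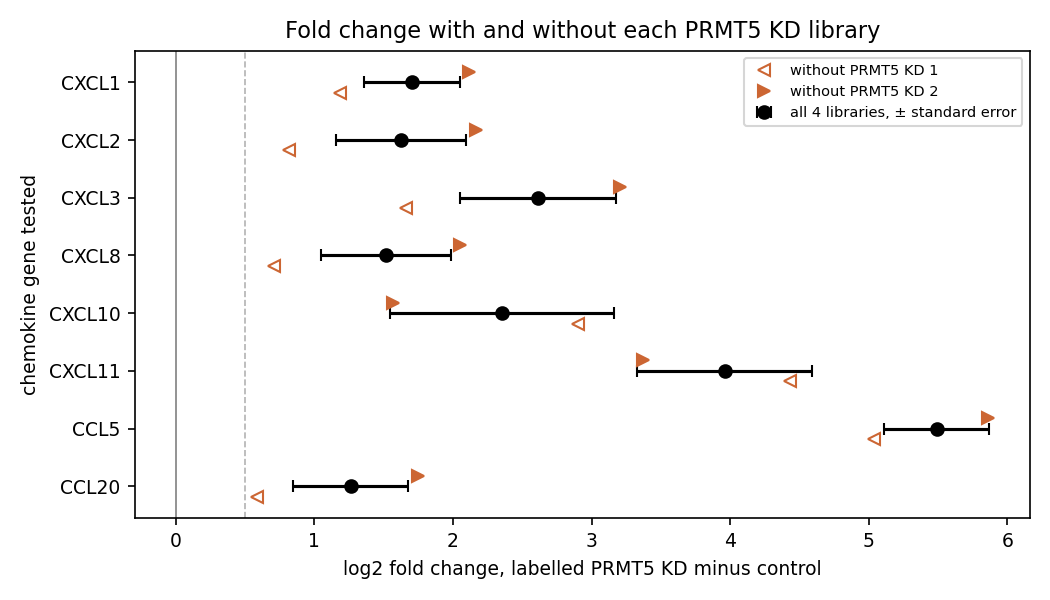
Log2 fold change (PRMT5 KD label minus control) of the 8 chemokine genes tested, with the standard error of the fit to all 4 libraries and with the value after leaving out each PRMT5 KD library; the dashed line marks 0.5. For the ELR genes, CCL5 and CCL20 the value without PRMT5 KD 1 is the lower one, down to 0.59 for CCL20, and for CXCL10 and CXCL11 it is the higher one.

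PRMT5 KD 1 carried much of the size of the ELR and CCL20 changes. Without it, the log2 fold change was 1.18 for CXCL1, 0.82 for CXCL2, 1.66 for CXCL3, 0.71 for CXCL8 and 0.59 for CCL20. Without PRMT5 KD 2 the same values were 2.12, 2.16, 3.21, 2.05 and 1.74. The direction was the same in every case. PRMT5 KD 1 was also the library with the lowest share of counts on protein-coding genes, and the part of this in the result was not tested.

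The distance between the PRMT5 KD libraries was wide for these genes by the standard of the transcriptome. The ratio of PRMT5 KD 1 to PRMT5 KD 2 lay between 0.712 and 1.45 for the middle of all genes tested (percentiles 5 to 95, on CPM plus 0.5). On the same scale it was 1.95 for CXCL1, 2.60 for CXCL2, 2.98 for CXCL3, 4.47 for CXCL5, 2.60 for CXCL8, 1.80 for CCL5 and 2.25 for CCL20. It was 0.408 for CXCL10 and 0.497 for CXCL11. All of the genes but CCL2 thus lay outside that range, 7 of them with PRMT5 KD 1 higher and 2 with PRMT5 KD 2 higher. Between the control libraries, the ratio was 3.78 for CXCL10 and 2.30 for CXCL11, against 0.788 to 1.22 for the other 8, where the range for all genes was 0.785 to 1.31. CXCL10 and CXCL11 were thus the 2 chosen chemokines whose control libraries stood apart.

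**Figure D3:**
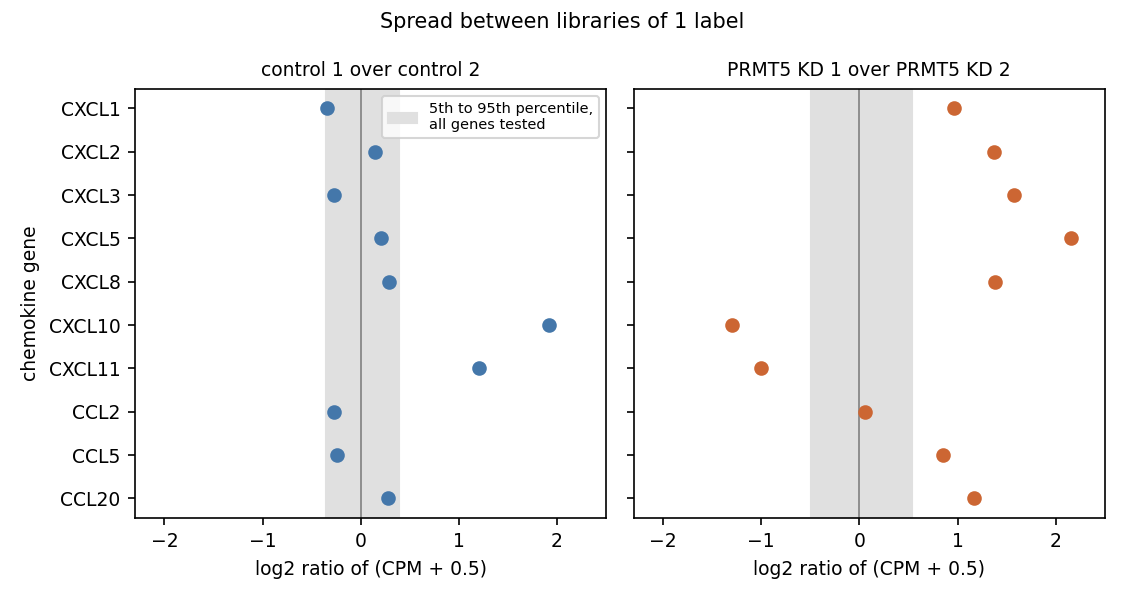
Log2 ratio between the 2 libraries of 1 label for each chemokine gene, on CPM plus 0.5, with controls on the left and PRMT5 KD on the right; the grey band holds all genes tested from percentile 5 to 95. In control, CXCL10 and CXCL11 lie outside the band, and in PRMT5 KD every gene but CCL2 does, with CXCL10 and CXCL11 on the side opposite to the rest.

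Levels of different genes were compared per exon length, as RPKM. In control the order of mean RPKM was CXCL8 (1035), CXCL1 (496), CXCL2 (116), CXCL3 (31.2), CXCL10 (10.6), CCL20 (10.1), CXCL11 (1.43), CCL5 (1.20), CCL2 (0.214) and CXCL5 (0.0248). Neighbours in this order were separated in both libraries except CXCL10 from CCL20 and CXCL11 from CCL5. In the libraries labelled PRMT5 KD the order began in the same way with CXCL8 (2962), CXCL1 (1618), CXCL2 (359) and CXCL3 (191). CCL5 (54.5) then stood level with CXCL10 (54.1), ahead of CCL20 (24.3), CXCL11 (21.8), CXCL5 (0.849) and CCL2 (0.0271). There the ranges of CXCL8 and CXCL1, of CXCL2 and CXCL3, and of each neighbour from CCL5 down to CXCL11 overlapped. CCL5 moved from place 8 to place 5.

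The ELR genes made up nearly all of the chemokine RNA under both labels. Their share of the summed RPKM of the 10 genes was 98.2% and 99.0% in control and 98.0% and 95% in PRMT5 KD. CXCL8 alone took 64.8% and 56.6% in control and 58.0% and 51.5% in PRMT5 KD. The 10 genes together took 0.290% and 0.259% of all counts in control, and 1.15% and 0.559% in PRMT5 KD.

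**Figure D4:**
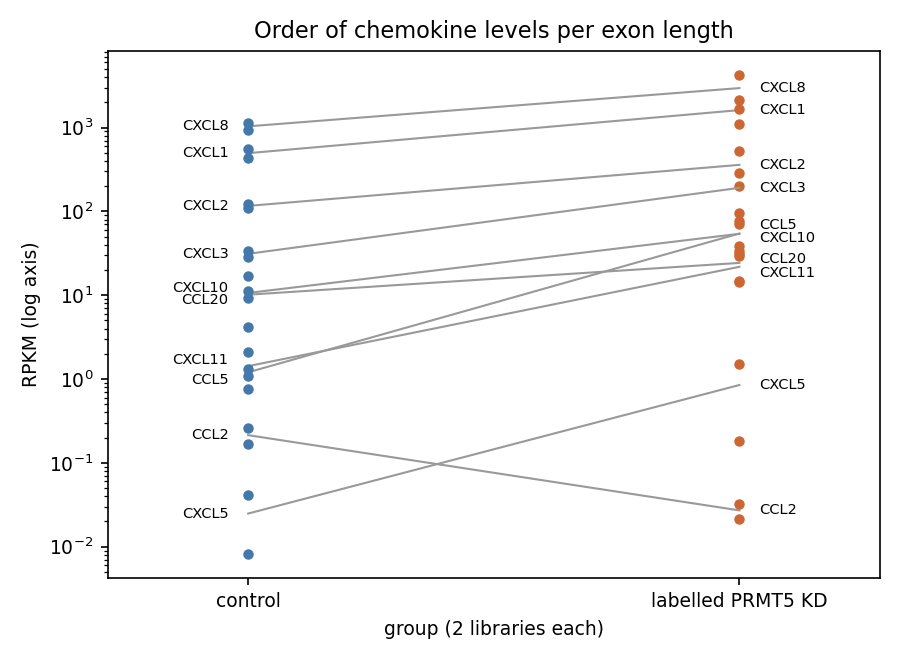
RPKM of the 10 chemokine genes on a log axis by label, with a point for each library and a line between the group means. CXCL8 stays first, CCL5 climbs from 1.20 to 54.5 RPKM to stand beside CXCL10, and CCL2 falls below CXCL5.

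The other chemokine ligands did not move as a block. Of 34 listed, 6 had enough counts to be tested, of which 2 were called higher, 2 lower and 2 neither, with a median log2 fold change of 0.45. Another 13 had no count in any library. Over all genes tested, 21.2% were called higher and 24.3% lower, which is the background for the counts of this list and the lists below. CCL3, a macrophage inflammatory protein and ligand of CCR1, had 31 and 42 counts in control against 5202 and 1639 in PRMT5 KD. Like CCL5 it was close to absent in control, and its log2 fold change was 6.46 (SE 0.76, FDR = 0.00305). CCL3 passed the filter on low counts only through the libraries labelled PRMT5 KD, and with no filter its FDR was 0.0281. CXCL16, a membrane-bound ligand of CXCR6, was higher by 2.05 on the log2 scale (FDR = 0.00139). CXCL12, the stromal ligand of CXCR4, was lower with a log2 fold change of -1.87 (FDR = 0.000511), as was XCL1 with -0.88 (FDR = 0.0393), whose call was lost with no filter (FDR = 0.0748). CXCL6, the remaining ELR gene expressed here, was named after its values were seen. It had 35.6 and 56.0 CPM in control against 65.6 and 39.8 CPM in PRMT5 KD, so its groups overlapped (log2 fold change 0.20, FDR = 0.630).

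The receptors named here as the main receptors of the ELR genes, CXCL10, CXCL11, CCL2 and CCL20 were at or near 0. CXCR1 had no count in any library. CXCR2 had 2 and 2 counts in control and 4 and 4 in PRMT5 KD, and CCR6 had 2 and 5 against 2 and 1. CXCR3 and CCR2 had counts in control 2 only, 2 and 1 of them. Of 23 receptors listed, 4 were tested, of which 2 were called lower, none higher and 2 neither (median log2 fold change -1.36). ACKR3, an atypical receptor that scavenges CXCL12 and CXCL11, had 35.6 and 15.4 CPM in control against 3.17 and 5.48 CPM in PRMT5 KD (log2 fold change -2.56, FDR = 0.0133).

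Cytokines and receptors that lie upstream of chemokine genes were mixed. Of 24 listed, 17 were tested, of which 4 were called higher, 5 lower and 8 neither, with a median log2 fold change of -0.17. These counts are near the shares over all genes tested, 21.2% higher and 24.3% lower. IL36G, an epithelial cytokine of the interleukin-1 family, had 0.152 and 0.240 CPM in control against 42.1 and 4.0 CPM in PRMT5 KD (log2 fold change 6.83, FDR = 0.0217). IL1RN, the interleukin-1 receptor antagonist, was higher by 3.80 (FDR = 0.00399), and TNFRSF1B, a TNF receptor, by 2.98 (FDR = 0.0120). With no filter on low counts the calls of IL36G (FDR = 0.129) and TNFRSF1B (FDR = 0.0568) were lost, while IL1RN kept its call (FDR = 0.00825). Both IL36G and IL1RN had passed the filter only through the libraries labelled PRMT5 KD. TNF itself was lower. It had 38.1 and 30.7 CPM in control against 3.76 and 2.05 CPM in PRMT5 KD, a log2 fold change of -3.56 (FDR = 0.000666).

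IL1B and IL6 were named after their values were seen. IL1B, a strong inducer of the ELR genes, had 172 and 242 CPM in control, 2142 CPM in PRMT5 KD 1 and 381 CPM in PRMT5 KD 2. Its groups did not overlap, and PRMT5 KD 1 was the higher library, as for the ELR genes, but the test did not pass (log2 fold change 2.61, SE 0.86, FDR = 0.0589). IL6 had 340 and 231 CPM in control against 1692 and 764 CPM in PRMT5 KD and was called higher (log2 fold change 2.10, FDR = 0.0144). IFNB1 and IFNG, which encode interferons, stayed under 0.6 CPM in every library and were not in the main test. IFNG had 1 and 1 counts in control against 27 and 4 in PRMT5 KD, with no overlap. With no filter on low counts it was called higher (log2 fold change 3.76, FDR = 0.0332). IFNB1 had 18 and 2 counts against 22 and 8, which overlapped (log2 fold change 0.46, FDR = 0.745).

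Lists of genes that regulate these chemokines had medians closer to 0. Of the 16 NF-kB subunits and feedback genes, all tested, 5 were called higher, 2 lower and 9 neither (median log2 fold change 0.31). CHUK, which encodes the kinase IKK-alpha, was higher by 0.93 (FDR = 0.000987), NFKBIZ, a nuclear co-factor of NF-kB, by 0.88 (FDR = 0.00929) and TNIP1, a brake on the pathway, by 0.82 (FDR = 0.00319), whereas BCL3, another nuclear IkB protein, had a log2 fold change of -0.80 (FDR = 0.00696). Of 10 interferon regulators, 8 were tested, with 3 called higher, none lower and 5 neither (median 0.30). Among those called were IRF7 at 1.11 (FDR = 0.00813) and IRF2 at 0.58 (FDR = 0.0356). Of 10 mRNA decay factors, which can act on the AU-rich messages of many chemokines, 3 were called higher, 1 lower and 6 neither (median 0.32). ZFP36L2 was higher by 2.24 (FDR = 0.00153), KHSRP by 1.09 (FDR = 0.000849) and HNRNPD by 0.69 (FDR = 0.00243), and ZFP36L1 had a log2 fold change of -1.64 (FDR = 0.000329).

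**Figure D5:**
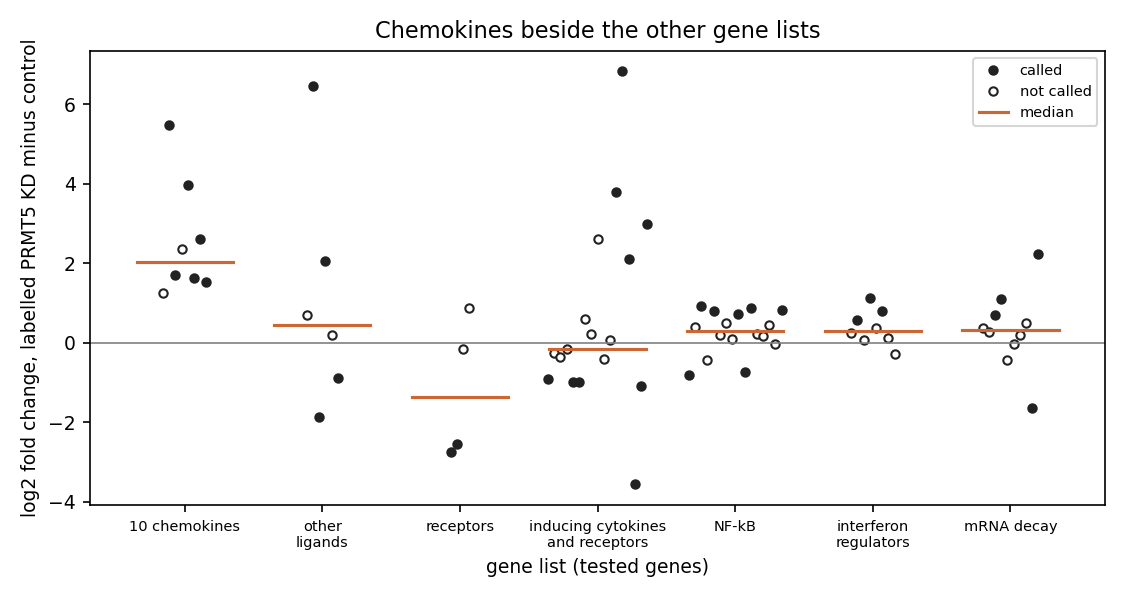
Log2 fold change (PRMT5 KD label minus control) of the tested genes of each list, with filled points for genes called, open points for genes not called and a line at the median. The 8 chemokines tested lie above 1, whereas each of the other lists plotted holds genes on both sides of 0.

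Markers of other cell types differed between the labels. Of 10 leukocyte markers, 1 was tested, CD14, which was called lower (log2 fold change -4.67, FDR = 0.000243). The summed level of the list was 36.0 and 41.5 CPM in control against 2.67 and 2.7 CPM in PRMT5 KD. In control nearly all of that sum was CD14 (34.6 and 40.0 CPM), so it says little about the other markers. FCER1G was higher without overlap, with 2 and 3 counts in control against 16 and 8 in PRMT5 KD. CSF1R overlapped, with 42 and 53 counts against 53 and 20. PTPRC, the marker that defines leukocytes, had 3, 5, 0 and 2 counts, and CD3E had none. Of 8 stromal and endothelial markers, 5 were tested and all 5 were called lower, with a summed level of 323 and 406 CPM in control against 49.7 and 64.0 CPM in PRMT5 KD. PECAM1 had a log2 fold change of -5.27, COL3A1 of -5.25, PDGFRB of -2.38 and COL1A1 of -1.95. Of these, PECAM1 and COL3A1 had passed the filter on low counts only through the control libraries. With no filter they were called lower as well (FDR = 1.58e-05 and 0.000864). Of 10 epithelial markers, 4 were tested, with 1 called higher and 3 lower. Those lower were ITGB4 (log2 fold change -3.10), TP63 (-1.35) and ITGA6 (-0.98). Here ITGB4 and TP63 had passed the filter only through the control libraries, and with no filter both were called lower (FDR = 0.000100 and 0.00649). The summed level of the list was 75.9 and 75.1 CPM in control against 77.4 and 59.0 CPM in PRMT5 KD. The part of these differences in the chemokine levels was not tested.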

How the data were processed

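The authors deposited estimated counts per gene, 1 table for each library, with no normalization and with whole numbers in 86.0% to 86.8% of the values and decimals in the rest. The submitters' processing notes name FastQC, Trim Galore, STAR, Salmon and DESeq2 and the build GRCh38, with no roles. The methods describe STAR alignment to hg38 and FeatureCounts on Gencode genes, and the program behind the decimals is not given in the sources used here. Names turned into dates (28 of 29744 entries) were left out, which took 0.150% to 0.161% of the counts, and the rest were matched to GENCODE release 44.

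Counts were rounded. The test covered protein-coding genes that reached 0.5 RPKM in every library of control or of PRMT5 KD, and used edgeR 4.0.16 (quasi-likelihood, robust, TMM, no replicate term) in R 4.3.3, with Benjamini-Hochberg adjustment (FDR) over all 11897 genes. RPKM values used union exon lengths. The SE of a log2 fold change was computed from it and its F value. The alternatives were DESeq2 1.42.0, other scalings, filters and gene sets, non-robust dispersion, a replicate block, a length and GC correction (splines with 4 degrees of freedom), the 3 paralogs summed and each library left out. The fits were tested on simulated data. Libraries of 1 label differed by more than sampling noise (chi-square per gene 52.3 in control and 127 in PRMT5 KD), so none was a copy. Alignments used Biopython 1.88, and promoters came from RefSeq.

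The genes named are the 10 chemokines, PRMT5, the receptors CXCR1, CXCR2, CXCR3, CCR2 and CCR6, and in each other list up to 4 called genes with the largest change and an average log2 CPM of at least 0. KRT5, KRT14, KRT6A, CDH1, PTPRC and CD3E were named as defining markers. CXCL6, CXCL9, IL1B, IL6, IFNB1, IFNG, EPCAM, KRT17, FCER1G and CSF1R were named after their values were seen. The chemokines and lists were chosen with earlier results of these data known. Some genes that this rule takes in are not reported here. The FXR1 part of the experiment was not analysed here.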

Additional observations from a re-analysis of the deposited data

How the results depend on the processing

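None of the 8 chemokines tested changed direction under any alternative. The number of chemokines called higher was 6, and it was 3 with no filter on low counts and 2 to 6 when 1 library was left out, the lowest without control 2. The number of genes called was 5416, and it was 3106 to 5704 when 1 library was left out, again lowest without control 2. In these fits the lone library of a label is assumed to vary like the other label's libraries. With every library kept, the number of chemokines called higher rose to 8 with DESeq2 and with non-robust dispersion. It fell to 4 with the length and GC correction. The length and GC correction ended the calls of CXCL2 (log2 fold change 1.16, FDR = 0.0950) and CXCL8 (1.30, FDR = 0.0691), and together with the replicate block those of CXCL1 (1.12, FDR = 0.0596) and CXCL2 (1.00, FDR = 0.0644). The cause was not tested.

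The replicate block alone called 5190 genes and 7 of the chemokines, since CCL20 passed, and changed no other chemokine's call. With edgeR's filterByExpr, which let CXCL5 and CCL2 into the test, CXCL5 was called higher and CCL2 lower. The replicate numbers were not taken as pairs, because the labels do not say that they are and same-numbered libraries deviated with a correlation of -0.10 across genes. The crossed pairing, chosen after seeing the data, called 5483 genes and 5 chemokines. On total counts alone the median of all genes shifted to 0.17, and 61.5% of calls were higher, against 46.5% in the TMM fit. Low counts limited the precision for CXCL5, CCL2 and the receptors CXCR2, CXCR3, CCR2 and CCR6.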
